A study of Mus musculus with 12 samples.

Results

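At 386 promoter peaks, among them those of *Dapl1*, *Itgae*, *Thy1*, *Lgals1* and *Bmf*, chromatin was less accessible in UTX-deficient CD8+ T cell progenitors than in WT progenitors. These 386 peaks were selected on the measured accessibility itself: of the 23932 peaks listed in the authors' comparison of the 2 genotypes, they are those annotated to a promoter whose mean accessibility was lower without UTX. They made up 386 of 2621 listed promoter peaks, the remaining 2235 being more accessible. UTX, encoded by the X-linked gene *Kdm6a*, removes methyl groups from lysine 27 of histone H3, a mark of repressed genes, and is a subunit of the MLL3/4 complexes that methylate histone H3 at enhancers. A promoter is the stretch of DNA around the transcription start site on which the transcription machinery assembles, and most active promoters are depleted of nucleosomes. ATAC-seq reads this openness from where a transposase can insert sequencing adapters into chromatin.

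The cells came from the pancreatic lymph nodes of female *NOD-TCR 8.3* (NY8.3) mice, nonobese diabetic mice whose transgenic T cell receptor recognizes a peptide of the β cell antigen IGRP. In the *UTX TCD* group, floxed UTX alleles (*UTX fl/fl*) were deleted by Cre recombinase under the *Lck* promoter, which is active from thymic development on, so that deletion was directed at T cells as a whole and not only at the sorted progenitors. The WT group was UTX-sufficient, and both groups carried the receptor transgene on a NOD background reached by repeated backcrossing of a C57BL/6 line. Each genotype had 3 RNA-seq and 3 ATAC-seq libraries, and the age of the mice for these libraries is not given in the sources used here. The sample labels give the gate as Ly108+ without CXCR6 and the study's methods as Ly108+CD39-. The study's methods call the ATAC-seq samples of a genotype biological replicates. The reads counted in genes, as the RNA-seq depth, came to 146456724, 144503203 and 193568919 for the WT libraries, against 61512402, 175462433 and 187275082 for the UTX TCD libraries, of which replicate 1 was the shallowest. ATAC-seq depth per library is unknown here, because accessibility was deposited as 1 mean per genotype.

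The cells carried the RNA of CD8 T cells. Expression is given as normalized counts, reads per gene after scaling each library by its size factor, and differences as the log2 fold change of UTX TCD over WT, computed after adding 1 to each value, which shrinks the changes of weakly expressed genes. A gene was called lower or higher when limma, fitted across all genes, gave an adjusted p below 0.05 together with a log2 fold change beyond 0.5 in that direction. For a single gene, 3 samples against 3 allow no exact permutation p below 0.10. Normalized counts of *Kdm6a* were 28365, 28949 and 29172 in WT and 24158, 24792 and 24579 in UTX TCD libraries (log2 fold change -0.23, SE 0.04, adjusted p = 0.00114, limma). The groups did not overlap, but the value adds up deleted and remaining exons and so does not check the deletion. All 6 CD8 T cell markers (*Cd3e*, *Cd3d*, *Cd8a*, *Cd8b1*, *Tcf7* and *Slamf6*) were detected and none was called. *Slamf6*, which encodes Ly108, had 27732, 34096 and 23305 normalized counts in WT and 36665, 30979.8 and 35425 in UTX TCD libraries, and the groups overlapped. *Entpd1*, which encodes CD39, had only 10.9, 29.6 and 11.4 in WT and 4.5, 12.8 and 4.42 in UTX TCD libraries, near the least that was tested. *Cxcr6*, a chemokine receptor of effector cells, was at 12757, 9619 and 13724 in WT and 5286, 5994 and 5695 in UTX TCD libraries (log2 fold change -1.07, SE 0.12, adjusted p = 0.000131, limma), with no overlap. *Cxcr6* RNA was thus present in cells that the labels describe as sorted without CXCR6 protein. The effector list (5 markers: *Cxcr6*, *Entpd1*, *Havcr2*, *Gzmb* and *Prf1*) summed to 24496, 20399 and 25968 in WT and 17354, 18470.4 and 18398 in UTX TCD libraries, lower in every UTX TCD library, and *Cxcr6* and *Havcr2* were called lower. *Havcr2*, which encodes the inhibitory receptor TIM-3, was at 17.8, 21.7 and 14.5 in WT and 2.25, 3.2 and 3.69 in UTX TCD libraries, close to the least that was tested. *Prf1*, which encodes perforin and was the most abundant of the list in UTX TCD libraries, differed in direction, with 11172, 10322 and 11680.5 in WT and 11706, 12095 and 12357 in UTX TCD libraries. Its groups did not overlap, but it was not called (log2 fold change 0.13, SE 0.05, adjusted p = 0.0892, limma).

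RNA of other cells was low beside that of T cells but not absent. The B cell list (6 markers) summed to 3030.2, 2538 and 2879.7 in WT and 1498, 1329 and 1502 in UTX TCD libraries, lower in every UTX TCD library. Its most abundant marker *Cd79b* was called lower but *Ms4a1* and *Cd22* were called higher among 5 tested, so that the list did not move one way. The myeloid list (7 markers, led by *Cst3*) summed to 5350.2, 4759.6 and 3900.1 in WT and 4510, 3410.4 and 3588 in UTX TCD libraries, with overlapping groups and 2 of 7 (*Csf1r* and *Itgax*) called lower. NK cell markers were near 0: their 3 genes summed to 35.7, 55.3 and 16.8 in WT and 18, 10.4 and 38.3 in UTX TCD libraries, and *Klra8* had no read in WT. Red cell RNA was likewise scarce, the 2 markers summing to 66.4, 46.4 and 34.3 in WT and 29.2, 23.2 and 146 in UTX TCD libraries. CD4 T cell RNA was sparse too. Its 3 markers summed to 449.7, 378 and 404 in WT and 382, 364 and 346 in UTX TCD libraries, and *Cd4* was called lower. The 3 stromal markers summed to 871, 568 and 878 in WT and 1055, 1095 and 956 in UTX TCD libraries, without overlap. Among them *Col1a2* was called higher, whereas the most abundant, *Col1a1*, and *Pdgfrb* had overlapping groups and were not called. The part of such cells, or of effector cells, in the results was not tested. In bulk samples, fewer cells of a type and less RNA per cell cannot be told apart.

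Accessibility was given as the authors' mean per genotype on a log2 scale, and the loss of a peak is the WT mean minus the UTX TCD mean. Because these values chose the peaks, they are described here without a test. The WT means ran from 5.62 to 12.43, with quartiles of 9.16, 10.18 and 10.89. Promoter peaks that were more accessible without UTX started lower, at a median of 8.16, as did the 7080 less accessible peaks outside promoters, at 8.04. The losses were mostly small. Their median was 0.37, which leaves 77.4% of the WT signal, and the largest was 3.29. A loss over 1 was seen at 33 peaks (8.55%), a loss of 0.5 to 1 at 90 and a loss under 0.5 at 263 (68.1%). Outside promoters, 34% of the less accessible peaks had a loss over 1, with a median of 0.78. Gains at the other promoter peaks had a median of 0.71.

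The promoters that started lowest had the largest losses. The 129 peaks with the lowest WT means (up to 9.51) had a median loss of 0.68, the 128 in the middle 0.33 and the 129 highest (from 10.69) 0.26. Of the 33 peaks with a loss over 1, 31 were among the lowest, 1 in the middle and 1, at *Thy1*, among the highest. All 23932 listed peaks were under the authors' FDR limit of 0.05, and the part of that limit in this order was not tested. To call a region differentially accessible, the study also required an absolute log2 fold change over 0.5. By the means used here, 263 of the 386 peaks had a loss under 0.5 and so fell short of that size. No listed promoter peak had a difference near 0. Nearest to it inside the selection were *Atp10d* (-0.19), *Cdkn2c* (-0.19) and *Wdcp* (-0.19). Just outside it lay *Abcc1* (0.19), *6720489N17Rik* (0.20) and *Sh3d21* (0.20), all with WT means between 10.58 and 11.03. Each peak was 401 bp long. The peak centre was within 100 bp of the start site at 248 peaks, 100 to 500 bp away at 101 and farther at 37, and 289 peaks were centred upstream of the start. The median loss was 0.32, 0.41 and 0.54 in these classes. By gene type, 337 peaks belonged to protein-coding genes, 45 to noncoding RNAs and 3 to pseudogenes, and 1 had no gene symbol. By number, chromosome 7 held the most, 32 of its 201 listed promoter peaks, beside 386 of 2621 over all chromosomes. Chromosome 17 held 23 of 109 and chromosome X 11 of 91.

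The 10 peaks with the largest loss were a mixed group. The first, at the noncoding gene *Gm12159* (chr11:45116698-45117098, mm10), had means of 6.54 in WT and 3.25 in UTX TCD cells, which leaves 10.2% of the WT signal. Its RNA was at 8.92, 0 and 10.7 normalized counts in WT and 0 in all 3 UTX TCD libraries, below the limit for testing. The second was *Dapl1* (chr2:59484448-59484848), a gene expressed in naive and memory-like CD8 T cells, with 8.54 in WT and 6.07 in UTX TCD cells and a difference of -2.47. Normalized counts of *Dapl1* were 19223, 16163 and 16644 in WT and 1694, 1468 and 1272 in UTX TCD libraries, with all UTX TCD libraries far below all WT libraries. The mean fell from 17344 ± 1646 to 1478 ± 211 (SD, n = 3; log2 fold change -3.56, SE 0.10, adjusted p = 6.62e-08, limma). Peaks annotated to the microRNA genes *Mir5113* (-2.18), *Mir3075* (-2.13) and *Mir7049* (-1.89) lay inside the bodies of *Tnrc6b*, *Zmiz1* and *Pak4*, in that order, and RNA of none of the 3 could be tested. At *Emilin1*, which encodes an extracellular matrix glycoprotein, the difference was -2.09. Its RNA was at 1178, 1102 and 1232 in WT and 578, 646 and 638 in UTX TCD libraries, and the groups did not overlap (log2 fold change -0.91, SE 0.09, adjusted p = 6.87e-05, limma).

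At the other 4 of these peaks no RNA difference was called. *Ndst1*, an enzyme of heparan sulfate synthesis, had an accessibility difference of -1.86, but its RNA was at 5851, 5855 and 5701 in WT and 5621, 5957 and 5834 in UTX TCD libraries, and the groups overlapped (adjusted p = 0.999, limma). The *Ndst1* peak lay inside the gene body, near the start of an inner transcript and not at the outermost start. Its RNA value is for the whole gene and cannot show the RNA made from that inner start. *Tyrobp*, the signalling adaptor of receptors on myeloid and NK cells, had a difference of -1.92 at a peak 886 bp upstream of its start. Its normalized counts of 155, 159 and 117 and 148, 101 and 92.1 overlapped (adjusted p = 0.251, limma), next to the myeloid and NK marker sums given above. *Gm3716* (-1.88) had 53.5, 102 and 62.5 in WT and 18, 28 and 66.3 in UTX TCD libraries, with UTX TCD replicate 3 inside the WT range. Without that library it was called lower (log2 fold change -1.59). *Enpp7* (-1.99), which encodes an intestinal sphingomyelinase, had 3 reads in WT replicate 2 and none in the other libraries, too few to test.

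The promoters that started highest kept most of their signal. The 5 highest WT means were those of *E330020D12Rik* (12.43), *Nfe2l2* (12.39), *Ifngr1* (12.27), *Rras* (12.17) and *Crebl2* (12.15), with differences of -0.50, -0.31, -0.24, -0.25 and -0.25. Their RNA varied. *Ifngr1*, the ligand-binding chain of the interferon-γ receptor, had 18521, 21610.4 and 19169 normalized counts in WT and 9416, 9684 and 11133 in UTX TCD libraries (log2 fold change -0.97, SE 0.08, adjusted p = 2.14e-05, limma). The noncoding *E330020D12Rik* was at 1391, 1747 and 1059 in WT and 646, 496 and 526 in UTX TCD libraries (log2 fold change -1.31, SE 0.18, adjusted p = 0.000444, limma). Neither pair of groups overlapped. *Nfe2l2*, a transcription factor of the oxidative stress response, had a smaller difference that did not reach the fold limit (log2 fold change -0.26, SE 0.04, adjusted p = 0.00162, limma). *Rras*, a small GTPase, and *Crebl2* overlapped between genotypes, with log2 fold changes of 0.00 and 0.06.

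RNA was measured in libraries that the selection of the peaks did not use. The 385 peaks with a symbol named 377 genes, of which 358 were listed in the RNA table, 5 of them under another RefSeq name, and 19 were not. A mean of at least 10 normalized counts over the 6 libraries was reached by 334 genes, and 24 listed genes were not tested. Of the 334 tested genes, 121 (36.2%), *Itgae*, *Thy1*, *Lgals1* and *Cd9* among them, were called lower, against 7.05% of all 14459 tested genes. Only 9 (2.69%) were called higher, against 10.5% of all tested genes. The other 204, such as *Ndst1*, *Rras* and *Ptpn6*, were not called. All 121 and all 9 had groups that did not overlap. The share without overlap among all called genes is not given here, so this is not read as particular to them. The median log2 fold change was -0.26 in the 334 genes and 0.00 in all tested genes. By library, the median difference of these genes from the WT mean was -0.27, -0.25 and -0.29 in UTX TCD replicates 1, 2 and 3. The 24 untested genes had too few reads to be read either way, so these counts describe the tested genes and not all genes of the 386 peaks.

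Genes were then grouped by features of their peaks, as a description without a test, with each gene counted once at its peak of largest loss. For a loss over 1, 12 of 22 tested genes were called lower and 0 higher, by limma, edgeR and DESeq2 alike and also 0 higher at an unadjusted p below 0.05. For a loss of 0.5 to 1, 41 of 67 tested genes were called lower and 1 higher, with a median log2 fold change of -1.02. For a loss under 0.5, 68 of 245 tested genes were called lower and 8 higher, with a median log2 fold change of -0.19. The share called lower was thus smallest among the genes with the smallest losses. For the 129 peaks with the lowest WT means, 49 of 95 tested genes were called lower and 1 higher, with a median log2 fold change of -0.70. For the middle 128 the counts were 36 of 115 lower and 3 higher, and for the 129 highest 36 of 124 lower and 5 higher. With distance to the start, the share called lower was 33.9% within 100 bp, 41.2% at 100 to 500 bp and 40.9% beyond. Noncoding genes were called lower in 7 of 20 tested and protein-coding genes in 114 of 311. For comparison, genes of promoter peaks that were more accessible without UTX were called higher in 497 of 1357 tested and lower in 49. Genes nearest to a less accessible peak outside promoters were called lower in 472 of 2410 tested and higher in 138. These gene sets share members with the 334 genes, and the differences between them were not tested.

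Among all 14459 tested genes, 334 had a less accessible promoter peak. Adhesion and migration genes were the list with the most such promoters, 11 of 58 genes. These were *Itgae*, *Itga4*, *Thy1*, *Cd9*, *Anxa6*, *S100a11*, *Lgals1*, *Emp3*, *Ccr8*, *Ccr9* and *Cx3cr1*. Of the 9 tested, 8 were called lower and 1 was not, beside 22 lower and 5 higher of the 54 genes of the list that were tested. *Itgae* encodes CD103, the α chain of an integrin that binds E-cadherin on epithelial cells. Its promoter peak (chr11:73090339-73090739) had means of 9.16 in WT and 7.61 in UTX TCD cells. Normalized counts of *Itgae* were 61194, 65163 and 64576 in WT and 14859.5, 15948 and 14709.9 in UTX TCD libraries (63644 ± 2142 against 15172 ± 676 (SD, n = 3)), without overlap (log2 fold change -2.07, SE 0.05, adjusted p = 1.88e-08, limma). *Thy1*, a surface glycoprotein of T cells, had means of 10.90 in WT and 9.60 in UTX TCD cells at a peak centred on its start (chr9:44043184-44043584). Its RNA was at 169977, 135061 and 163387 in WT and 34422, 33235 and 21887 in UTX TCD libraries (156142 ± 18552 against 29848 ± 6920.1 (SD, n = 3)). All WT libraries were above all UTX TCD libraries (log2 fold change -2.41, SE 0.16, adjusted p = 8.58e-06, limma).

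At *Lgals1*, which encodes the β-galactoside-binding lectin galectin-1, accessibility was 10.27 in WT and 9.23 in UTX TCD cells. RNA was at 11699.9, 8513 and 11074 in WT and 828, 766 and 773 in UTX TCD libraries, without overlap (log2 fold change -3.71, SE 0.11, adjusted p = 6.71e-08, limma). *Cd9*, a tetraspanin, combined a small accessibility difference of -0.33 with a large one in RNA. Its normalized counts were 1601, 2115 and 1701 in WT and 144, 164 and 155 in UTX TCD libraries (log2 fold change -3.53, SE 0.13, adjusted p = 2.21e-07, limma). *Itga4*, the α4 chain of the integrin VLA-4 that binds VCAM-1, had 92438, 107687 and 89869.7 in WT and 48247, 46934 and 44513 in UTX TCD libraries (log2 fold change -1.05, SE 0.07, adjusted p = 8.48e-06, limma), at an accessibility difference of -0.56. The membrane protein gene *Emp3* (log2 fold change -1.43), the calcium-binding *S100a11* (-1.52) and the annexin *Anxa6* (-0.75) were also called lower. *Ccr9*, a receptor for the gut chemokine CCL25, was the tested gene of this list that was not called. It had 85116, 102905 and 84897 in WT and 79849, 79986 and 59982 in UTX TCD libraries (log2 fold change -0.32, SE 0.12, adjusted p = 0.0562, limma). The chemokine receptors *Ccr8* and *Cx3cr1*, whose genes are neighbours on chromosome 9, had accessibility differences of -0.90 and -0.62 but too few reads to test. *Ccr8* was at 0, 0.99 and 0 normalized counts in WT and 13.5, 9.61 and 2.95 in UTX TCD libraries.

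Among cytotoxicity and chemokine genes, 3 of 36 had such a promoter peak and 1 of these was called lower, beside 7 lower and 4 higher of 34 tested in the list. At *Gzmb*, which encodes the cytotoxic protease granzyme B, accessibility was 9.40 in WT and 8.45 in UTX TCD cells. RNA was at 539, 407 and 538 in WT and 355, 366 and 338 in UTX TCD libraries, which did not overlap. The difference fell short of the fold limit (log2 fold change -0.47, SE 0.14, adjusted p = 0.0217, limma), and depended on single libraries. Without WT replicate 2 it was called (log2 fold change -0.61). The adjusted p was instead 0.0944 without WT replicate 1, 0.0800 without WT replicate 3 and 0.0501 without UTX TCD replicate 2, and ran from 0.00432 to 0.0944 over the alternatives. *Srgn* encodes serglycin, the proteoglycan that packs granzymes in granules, and had 28729, 31275 and 29653 in WT and 19061, 20058 and 22693 in UTX TCD libraries (log2 fold change -0.54, SE 0.07, adjusted p = 0.000252, limma). It fell below the fold limit without UTX TCD replicate 1 (-0.49) and with libraries scaled to the same total (-0.48). The death receptor gene *Fas* was not called (log2 fold change -0.27, SE 0.07, adjusted p = 0.0153, limma).

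Cytokine receptor and JAK-STAT genes had 4 such promoters among 45 genes. Beside *Ifngr1*, *Il12rb2*, a chain of the interleukin-12 receptor, was called lower, with 1112, 1161 and 1033 normalized counts in WT and 567, 501 and 636 in UTX TCD libraries (log2 fold change -0.96, SE 0.11, adjusted p = 0.000156, limma). *Cish*, a STAT5-induced inhibitor of cytokine and T cell receptor signalling, went the other way. It was at 756, 827 and 742 in WT and 2423, 2705 and 2161 in UTX TCD libraries, without overlap (log2 fold change 1.64, SE 0.09, adjusted p = 3.92e-06, limma), although its promoter peak was less accessible (-0.31). *Il6st*, the shared gp130 chain of the interleukin-6 receptor family, was not called (log2 fold change -0.19). Over the whole list, 6 of 44 tested genes were called lower and 6 higher. Among T cell receptor signalling and surface receptor genes, 4 of 63 had such a promoter, and *Dapl1*, *Cd7* and *Tnfrsf1b* were called lower. *Cd7*, an immunoglobulin family receptor of T and NK cells, was at 15212, 14948 and 15430.4 in WT and 3419, 3434 and 3419 in UTX TCD libraries (log2 fold change -2.15, SE 0.04, adjusted p = 6.08e-09, limma). *Tnfrsf1b*, which encodes TNF receptor 2, was at 10808, 10874 and 10813 in WT and 4202, 4217 and 4814 in UTX TCD libraries (log2 fold change -1.30, SE 0.06, adjusted p = 8.43e-07, limma), again without overlap. *Ptpn6*, the phosphatase SHP-1 that restrains receptor signalling, had 2 less accessible promoter peaks and overlapping RNA groups (log2 fold change 0.02, adjusted p = 0.676, limma). In the list, 12 of 63 tested genes were called lower and 1 higher.

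Listed transcription factors with such a promoter were few. Of 38 effector factors, 2 had such a promoter, among them *Fosl2*, which was called lower. *Fosl2*, a member of the AP-1 family, had 3829, 2869 and 4021 normalized counts in WT and 655, 601 and 692 in UTX TCD libraries (log2 fold change -2.45, SE 0.12, adjusted p = 1.87e-06, limma) at a peak 692 bp upstream of its start. The list as a whole had 4 of 37 tested genes called lower and 12 higher. None of the 22 listed progenitor factors or 72 listed chromatin regulators had a less accessible promoter peak. Nor had any of the 34 listed glycolysis and lipid synthesis genes or 86 cytoplasmic ribosomal protein genes. Only 334 of all 14459 tested genes had one, so 0 in lists of these sizes is not read as a result about them. The lists are also not complete. Outside them, the chromatin genes *Brd1* (difference -0.40), *Phf2* (-0.29) and *Gatad2a* (-0.22) had such a peak. So had the TCF/LEF factor *Tcf7l2* (-0.33) and the lipid genes *Agpat1* (-0.26) and *Elovl1* (-0.22). These genes were chosen after their values were seen, and their RNA was not followed through the alternatives. RNA of these lists was called lower in 0 of 22, 2 of 70, 3 of 34 and 21 of 85 tested genes and higher in 2, 0, 2 and 2. The 0 lower among progenitor factors and the 0 higher among chromatin regulators were also 0 by edgeR and DESeq2, with 3 and 18 genes at an unadjusted p below 0.05 in limma. Among 33 survival genes, *Bmf*, *Bcl2l2* and *Pim1* had such a promoter and all 3 were called lower, beside 3 lower and 3 higher of 33 tested. *Bmf*, a proapoptotic BH3-only protein, was at 1212, 1370.3 and 1228 in WT and 189, 176 and 87.7 in UTX TCD libraries (log2 fold change -3.14, SE 0.26, adjusted p = 2.6e-05, limma). *Bcl2l2*, which encodes the antiapoptotic BCL-W, was called lower as well (log2 fold change -0.72, SE 0.16, adjusted p = 0.00601, limma).

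The kinase gene *Pim1*, a target of cytokine signalling, was at 3429, 3513 and 3454 in WT and 2065, 2120.4 and 3103 in UTX TCD libraries (log2 fold change -0.54, SE 0.14, adjusted p = 0.0124, limma), with UTX TCD replicate 3 closest to WT. Its log2 fold change came to -0.43 without UTX TCD replicate 1, -0.45 without UTX TCD replicate 2 and -0.48 with libraries scaled to the same total, all short of the fold limit. The interferon response list had 1 such promoter among 64 genes, at *Samhd1*, a restriction factor that degrades deoxynucleotides. RNA of *Samhd1* was not called (log2 fold change 0.15), whereas 41 of 63 tested genes of the list were called higher and none lower. The 0 lower in that list was also 0 by edgeR and DESeq2 and at an unadjusted p below 0.05 in limma. Of 36 cell cycle genes, *Cdkn2c* had such a promoter and was called higher, as were 19 of 35 tested in the list. None of that list was called lower by limma, edgeR or DESeq2, and 2 were lower at an unadjusted p below 0.05. In the respiratory chain list (106 genes), the ATP synthase subunit genes *Atp5f1e* (log2 fold change -0.59, called) and *Atp5mf* (-0.40, not called) had such promoters, and the list had 7 of 98 tested genes lower and 1 higher. Of the 370 zinc finger genes whose symbol is Zfp followed by a number alone, 5 had such a promoter, and among these *Zfp629* was called (log2 fold change -1.28). *Zfp760* (-0.33), *Zfp128* (-0.08), *Zfp7* (0.07) and *Zfp174* (0.27) were not, and the list had 4 of 334 tested genes lower and 26 higher. *Zfp874a*, outside the list by its symbol and chosen after its values were seen, also had such a promoter (-0.25) and was not called (-0.27). Reads of zinc finger and ATP synthase genes can be shared with close copies, so their values are less certain.

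None of the 10 largest RNA decreases was at 1 of the 10 largest losses. *Trnp1*, a regulator of nuclear organization and proliferation, had 499, 822 and 462 normalized counts in WT and 2.25, 10.4 and 5.9 in UTX TCD libraries (log2 fold change -6.50, SE 0.44, adjusted p = 9.19e-06, limma), with accessibility of 10.05 in WT and 9.19 in UTX TCD cells. *Megf10*, an engulfment receptor, was at 52.5, 38.5 and 62.5 in WT and had no read in any UTX TCD library. Taking 3 reads in each UTX TCD library as the limit, it was at least 13.5-fold lower, a limit that covers counting error only. *A530021J07Rik*, annotated as protein-coding, had 58.4, 68.1 and 61.8 in WT, while UTX TCD replicates 1 and 2 had no read and replicate 3 had 4.

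*Pde9a*, a cyclic GMP phosphodiesterase, had 1429, 1327 and 1406 in WT and 74.2, 60.9 and 76.7 in UTX TCD libraries (log2 fold change -4.28, SE 0.13, adjusted p = 7.83e-08, limma). *Gcnt4*, a glycosyltransferase of core 2 O-glycans, was at 289, 138 and 263 in WT and 6.75, 8.01 and 11.8 in UTX TCD libraries (log2 fold change -4.51, SE 0.35, adjusted p = 1.84e-05, limma) at an accessibility difference of -0.39. *Lair1*, an inhibitory collagen receptor of many leukocytes, was at 1020.3, 759 and 1040.2 in WT and 63, 76.9 and 40.5 in UTX TCD libraries (log2 fold change -3.98, SE 0.24, adjusted p = 4.74e-06, limma). Myeloid cells also express it, and the myeloid list above summed to 4670 on average in WT and 3836 in UTX TCD libraries. *Ndnf*, a secreted glycoprotein, was at 324, 222 and 339 in WT and 29.2, 24 and 11.1 in UTX TCD libraries (log2 fold change -3.80, SE 0.35, adjusted p = 5.04e-05, limma). None of these 4 genes overlapped between genotypes. Another 2 of the 10 were neighbours on chromosome 3. *Adh1*, an alcohol dehydrogenase that oxidizes retinol, had a peak at chr3:138276930-138277330 with means of 9.28 in WT and 7.72 in UTX TCD cells, and the noncoding *0610031O16Rik* one at chr3:138239648-138240048 with 8.10 in WT and 6.70 in UTX TCD cells. *Adh1* was at 1296, 1094 and 1348 normalized counts in WT and 56.2, 35.2 and 25.1 in UTX TCD libraries (log2 fold change -5.04, SE 0.26, adjusted p = 2.01e-06, limma). *0610031O16Rik* was at 88.2, 65.2 and 71.7 in WT, with 1, 2 and 0 reads in UTX TCD replicates 1, 2 and 3.

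The 9 genes called higher despite a less accessible promoter were 2.69% of the 334 tested, beside 10.5% of all tested genes called higher. The groups of these 9 genes did not overlap, which was not compared with other called genes. Beside *Cish*, 7 of them had losses of at most 0.28. *Rgs12*, a regulator of G protein signalling, was at 307, 350.5 and 336 in WT and 634, 642 and 808 in UTX TCD libraries (log2 fold change 1.06, SE 0.13, adjusted p = 0.000227, limma). *Cdkn2c*, which encodes the CDK4 and CDK6 inhibitor p18INK4c, had 349, 332 and 343 in WT and 641, 648 and 809 in UTX TCD libraries (log2 fold change 1.02, SE 0.12, adjusted p = 0.000198, limma). Log2 fold changes were 0.84 for *Ogfrl1*, 0.84 for *Tmem8b*, 0.68 for *Cbarp* and 0.56 for *Ppfibp1*. The ninth gene, *Hirip3* (0.51), was chosen for naming after its values were seen. It fell short of the fold limit with TMM scaling (0.49) and without WT replicate 1 (0.46), WT replicate 3 (0.48) or UTX TCD replicate 3 (0.48). The genes nearest to the selection limit included 1 in each class: *Atp10d* was called lower (-0.51), *Cdkn2c* higher, and *Wdcp* was not called (0.36). *Atp10d* dropped below the fold limit without WT replicate 3 (-0.50), without UTX TCD replicate 1 (-0.49) and with libraries scaled to the same total (-0.45).

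Some genes had more than 1 such peak. *Gpr146*, an orphan receptor gene on chromosome 5, had 3, starting at 139377333, 139380439 and 139389622, with WT means of 10.59, 10.81 and 8.18 and differences of -0.41, -0.53 and -0.93. The weakest of the 3 had the largest loss. Its RNA was at 9735, 10415 and 10447 in WT and 6717, 7108 and 7534 in UTX TCD libraries (log2 fold change -0.52, SE 0.05, adjusted p = 0.000111, limma), and it fell below the fold limit without UTX TCD replicate 1 (-0.48) and at the same total (-0.46). Another 6 genes had 2 peaks each. Many of these genes also had listed peaks elsewhere: 168 of 358 had a less accessible peak outside the promoter, 99 a more accessible one, 48 both and 139 neither. With a further less accessible peak, 84 of 155 tested genes were called lower and 1 higher, with a median log2 fold change of -0.63. Without one, 37 of 179 tested genes were called lower and 8 higher, with a median log2 fold change of -0.09. At 4 genes, another promoter peak was more accessible without UTX.

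Sequence was read from the RefSeq GRCm38 (mm10) assembly of C57BL/6J, not from NOD mice. The peaks differed in base composition by size of loss. Median GC content was 64.3% at a loss under 0.5, 56.5% at 0.5 to 1 and 54.6% over 1. The ratio of observed to expected CpG dinucleotides, which is high in CpG islands, had medians of 0.70, 0.27 and 0.21. It was at least 0.6 in 65.8%, 31.1% and 6.06% of the peaks, and in 66.5% of promoter peaks that were more accessible. Large losses thus lay mostly at CpG-poor promoters. Of genes at CpG-poor promoters, 59 of 140 tested were called lower, and at CpG-rich promoters 62 of 194.

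Short motifs were searched on both strands of each 401 bp peak. A match is a description of the sequence and not a site of binding, and its frequency moves with base composition. The RUNX motif TGTGGT was in 27.5% of the 386 peaks and 17.7% of all 2621 listed promoter peaks, with 22.4% at a loss under 0.5, 35.6% at 0.5 to 1 and 45.5% over 1. The AP-1 motif TGANTCA was in 12.4% of the 386 peaks and 7.75% of all 2621 listed promoter peaks, with 9.89% at a loss under 0.5, 20% at 0.5 to 1 and 12.1% over 1. The TCF/LEF motif CTTTGA was in 16.1% of the 386 peaks and 14.3% of all 2621 listed promoter peaks, with 14.8% at a loss under 0.5, 11.1% at 0.5 to 1 and 39.4% over 1. The AP-1 and TCF/LEF shares thus did not rise steadily with loss, and the class over 1 holds only 33 peaks. The E-box CAGGTG was in 25.4% of the 386 peaks and 30.1% of all 2621 listed promoter peaks, with 21.7% at a loss under 0.5, 28.9% at 0.5 to 1 and 45.5% over 1. The GC-rich SP/KLF motif GGGCGG was in 64.8% of the 386 peaks and 68.6% of all 2621 listed promoter peaks, with 77.6% at a loss under 0.5, 47.8% at 0.5 to 1 and 9.09% over 1. The ETS motif CCGGAA was in 23.3% of the 386 and 20% of all. The STAT motif TTCNNNGAA was in 7.77% of the 386 peaks and 6.41% of all 2621 listed promoter peaks. For NFAT (GGAAAA) the shares were 20.7% and 21.6%, for NFY (GATTGG) 22.3% and 19.9%, and for IRF (GAAANNGAA) 6.22% and 7.94%. Few peaks held CRE (TGACGTCA, 3.11% and 2.67%), NRF1 (GCATGCGC, 2.59% and 2.94%) or YY1 (AAGATGGCG, 2.33% and 1.03%). Matches of different motifs may overlap.

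Sequences are shown for 7 named peaks with large losses whose genes were also called lower, so that the promoters behind these values can be read. Each is RefSeq GRCm38 (mm10) sequence from within the peak, 5′ to 3′ on the strand of the gene. It was taken from the 300 bases centred on the peak and ends where it would take in more than 30 exonic bases, which at *Bmf* is before the peak centre. They are *Dapl1* (chr2:59484499-59484682, plus strand), *Emilin1* (chr5:30913529-30913815, plus strand), *Adh1* (chr3:138276981-138277280, plus strand), *0610031O16Rik* (chr3:138239699-138239998, minus strand), *Thy1* (chr9:44043235-44043413, plus strand), *Bmf* (chr2:118549657-118549762, minus strand) and *Lgals1* (chr15:78926084-78926383, plus strand). Capitals mark matches to any of the 13 motifs on either strand.
Dapl1: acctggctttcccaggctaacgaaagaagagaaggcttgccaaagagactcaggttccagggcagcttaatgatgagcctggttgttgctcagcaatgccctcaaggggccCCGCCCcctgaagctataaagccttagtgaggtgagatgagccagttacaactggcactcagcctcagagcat
Emilin1: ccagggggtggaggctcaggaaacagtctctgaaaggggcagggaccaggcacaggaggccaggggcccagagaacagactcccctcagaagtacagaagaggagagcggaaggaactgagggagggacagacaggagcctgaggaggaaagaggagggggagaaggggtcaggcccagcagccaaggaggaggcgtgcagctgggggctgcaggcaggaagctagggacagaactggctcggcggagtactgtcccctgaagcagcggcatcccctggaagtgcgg
Adh1: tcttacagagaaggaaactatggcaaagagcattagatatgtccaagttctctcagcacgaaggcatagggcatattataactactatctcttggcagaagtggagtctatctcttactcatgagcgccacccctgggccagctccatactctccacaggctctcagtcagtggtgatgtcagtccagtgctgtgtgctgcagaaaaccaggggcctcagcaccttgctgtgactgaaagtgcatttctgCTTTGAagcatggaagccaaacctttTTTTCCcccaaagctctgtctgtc
0610031O16Rik: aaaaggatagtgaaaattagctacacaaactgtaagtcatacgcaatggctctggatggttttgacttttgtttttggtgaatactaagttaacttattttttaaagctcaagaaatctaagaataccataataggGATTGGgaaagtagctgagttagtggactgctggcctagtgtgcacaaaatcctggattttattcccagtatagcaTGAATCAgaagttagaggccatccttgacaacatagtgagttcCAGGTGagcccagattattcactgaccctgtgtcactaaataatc
Thy1: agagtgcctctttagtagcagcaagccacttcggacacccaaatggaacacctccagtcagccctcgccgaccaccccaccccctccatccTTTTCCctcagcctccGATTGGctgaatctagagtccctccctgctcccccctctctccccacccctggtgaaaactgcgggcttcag
Bmf: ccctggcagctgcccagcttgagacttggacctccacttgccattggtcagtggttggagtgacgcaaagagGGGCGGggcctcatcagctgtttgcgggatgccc
Lgals1: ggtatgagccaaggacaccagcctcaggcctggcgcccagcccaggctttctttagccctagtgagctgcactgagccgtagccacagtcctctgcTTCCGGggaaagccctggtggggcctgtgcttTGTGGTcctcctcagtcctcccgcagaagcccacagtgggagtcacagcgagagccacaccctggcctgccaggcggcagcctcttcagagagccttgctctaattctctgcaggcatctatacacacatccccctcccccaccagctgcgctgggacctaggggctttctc

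The 2 SP/KLF matches printed are those of *Dapl1*, read on the opposite strand, and *Bmf*. *Lgals1* held a RUNX and an ETS match. *Adh1* held a TCF/LEF and an NFAT match, *Thy1* an NFAT and an NFY match, and *0610031O16Rik* an AP-1, an E-box and an NFY match. No match was found in the printed *Emilin1* sequence.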

How the data were processed

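For RNA-seq, the authors used HISAT2 (mm10), featureCounts and DESeq2 and deposited a signal per gene and library, the count over 1 size factor per library. Whole reads were recovered from it for 100% of values (within 0.1 of a whole number). For ATAC-seq, the authors deposited DiffBind means per genotype as log2 values for peaks under their FDR limit, with HOMER annotation. Strand setting, gene annotation and any transposase shift are not given in the sources used here. The deposited fold changes, p-values and FDR hold the authors' own comparisons and were not used, apart from checking that every listed peak is under an FDR of 0.05.

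The test across genes with a mean of at least 10 normalized counts used R 4.3.3 with limma 3.58.1 (lmFit, then eBayes with trend; log2 of the value plus 1; genotype as term; Benjamini-Hochberg over all genes tested) and was tried on simulated reads. Distances from RefSeq GRCm38.p6 matched the listed ones within 2 bp at 377 of 385 peaks. Named genes are those of the lists with such a peak, the 10 largest losses, 5 highest WT means, 10 largest RNA decreases and 8 increases among called genes without overlap, 3 peaks on each side of the limit, genes with 3 peaks and the sort markers. Some results for items that the rule names are left out. The peaks and lists were chosen with earlier results of these data known. Alternatives covered the pseudocount, filter, scaling, test (edgeR 4.0.16, DESeq2 1.42.0), replicate block, fold limit, choice of peaks and each library left out.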

Additional observations from a re-analysis of the deposited data

How the results depend on the processing

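The count of 121 genes called lower was within 1.5 times in every alternative with all 386 peaks, from 81 to 164, and neither the median nor a called gene among those named changed sign. With each library left out in turn, 112 to 123 genes were called lower and 8 to 12 higher, with medians from -0.28 to -0.24; over all tested genes, 847 to 1030 were lower and 1317 to 1540 higher. The median was -0.23 at a mean of at least 50, -0.20 at the same total and -0.28 with TMM scaling. Without a fold limit 164 genes were lower and 34 higher, and 2963 and 2924 over all tested genes; at an absolute log2 fold change over 1, 81 and 4, and 484 and 769. With differences below -0.5 only, 53 were lower and 1 higher, with a median of -1.02, as fewer genes enter. edgeR called 120 lower and 9 higher, and DESeq2 119 and 9. Of 71 named genes tested, 45 had the same call in every alternative. The cause of the shifts was not tested except where fewer genes entered.

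Replicate numbers were not taken to pair the samples. Deviations of same-numbered libraries correlated across genes at 0.31, -0.20 and 0.09, and those of differently numbered libraries at -0.32 to 0.29. With 3 libraries per genotype, these values cannot settle whether samples were paired. With the replicate block, 120 genes were called lower and 9 higher, with a median of -0.26, and 990 and 1484 over all tested genes. The 24 untested genes averaged under 10 normalized counts, and whether more depth would change this was not tested. Accessibility carries no replicate spread here.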

Other observations

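Less accessible promoter peaks sometimes lay close together. Along the chromosomes, 38 neighbouring pairs were within 100 kb, some of them peaks of the same gene, as at *Gpr146* and *Ptpn6*. Such pairs were not counted over all listed promoter peaks, so the closeness is not read as particular to these peaks. At the locus of *Adh1* and *0610031O16Rik* the gap was 36882 bp, and at that of *Cx3cr1* and *Ccr8* 23101 bp. Another gene, chosen after its values were seen, was *Zbtb7b*, which encodes ThPOK, a factor of CD4 lineage choice. Its promoter peak (difference -0.77) lay 1426 bp from that of the overlapping noncoding gene *Gm15417* (-1.32). *Zbtb7b* RNA was at 68.4, 34.6 and 86.2 in WT and 9, 18.4 and 22.9 in UTX TCD libraries (log2 fold change -1.85, SE 0.44, adjusted p = 0.0095, limma), and reads of the overlapping pair may be shared. Of the 386 peaks, 72 were centred inside the body of another RefSeq gene and 30 had the start of another gene within 1 kb. The 29 other genes so found in the RNA table were called lower in 3 and higher in 1 of 19 tested.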
